A study of Mus musculus with 12 samples.

Results

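The nuclear-encoded genes of oxidative phosphorylation were examined in sorted hematopoietic stem cells (HSCs) of C57BL/6 mice. The members are the rows of the expression table whose symbol starts with Nduf, Uqcr or Atp5, or with Cox followed by a digit from 4 to 8, together with Sdha, Sdhb, Sdhc, Sdhd and Cyc1. By this rule 92 of the 22548 genes in the table were members. RNA-seq was available for 4 libraries of long-term HSCs from young mice aged 2 to 4 months (replicates 2 to 5), 5 from aged mice of 20 to 26 months (replicates 0 and 2 to 5) and 3 from aged mice of the same range treated with CASIN (replicates 1 to 3), a compound that inhibits Cdc42, a small GTPase. All cells were kept for 16 h at 3% O2, with 5 µM CASIN in the treated group alone, and the labels name no transgene or engineered allele. Each library was made from a pool of sorted cells with a single-cell RNA-seq kit (at least 200 cells per the labels). The comparisons ask how the expression of these genes differs with age, and whether the inhibitor changes it in aged HSCs.

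The respiratory chain passes electrons from NADH through complex I, or from succinate through complex II, to ubiquinone, complex III, cytochrome c and finally oxygen at complex IV. Complexes I, III and IV pump protons across the inner mitochondrial membrane, and complex V, the ATP synthase, uses the resulting gradient to make ATP. Most subunits are encoded in the nucleus and a few core subunits of complexes I, III, IV and V in mitochondrial DNA, so that both genomes contribute to 1 machine. HSCs are known for low respiratory activity and a reliance on glycolysis at rest, and for switching to oxidative metabolism when they differentiate.

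Of the 92 members, 42 belong to complex I, namely 7 core subunits, 28 accessory subunits and 7 assembly factors named Ndufaf. Complex II contributes 4 members, complex III 9, complex IV 20 and complex V 15. Within complex IV, 12 were counted as structural subunits of the usual form, Cox7a2l among them, and 8 as isoforms known from particular tissues. The symbols Atp5s and Atp5sl are also taken in by the rule, although neither product is a subunit of the synthase. Ndufa4 was counted with complex IV, where its product is now placed. None of the 26 mitochondrially encoded subunits or older aliases of them that were looked for is a row of the table, so the other genome was not analysed here.

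The values are log2 expression values that the authors brought to a common distribution. In every library many genes share its lowest value. This value ranged from 0.43 to 0.67 over the young libraries, from 0.018 to 0.23 over the aged ones and from 0 to 0.63 over those treated with CASIN. A gene above that value is called detected here. No counts were analysed, so the depth of the libraries is unknown and counting intervals cannot be had. Genes used by every cell are also listed at the lowest value in some libraries, so a member at that value is not shown to be unexpressed. In these pooled samples, fewer cells of a type and less RNA per cell cannot be told apart. Across the whole table, 6078 to 9673 genes were detected in young libraries, 11463 to 17621 in aged libraries, and 6845, 20013 and 7288 in CASIN replicates 1, 2 and 3, so that CASIN replicate 2 stands apart from the other libraries of its group.

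The labelled cell type was checked against 14 markers of HSCs. In young libraries 5 to 8 of these markers were detected, in aged libraries 9 to 13, and in CASIN replicates 1, 2 and 3 the counts were 4, 14 and 7. Kit and Ly6a, which encode the c-Kit and Sca-1 antigens of the sort, were at the lowest value in all 4 young libraries and in CASIN replicates 1 and 3, and each was detected in 3 of 5 aged libraries. Each of the other HSC markers was detected in at least 1 young library. Meis1 was detected in all 12 libraries and Hlf in 11, among them all young and all CASIN-treated ones. Summed log2 values of the HSC list ran from 33.3 to 43.3 in young, from 27.1 to 44.8 in aged and from 33.1 to 53.1 in CASIN-treated libraries. Of 3 progenitor markers outside the gate, at most 2 were detected in any library. Of the myeloid markers (9 in the table) 2 to 7 were detected, of the erythroid markers (8 in the table) 0 to 4, of the lymphoid markers (10) 3 to 10 and of the megakaryocyte markers (6) 0 to 5. Itgam and Cd8a, which encode the CD11b and CD8a antigens of the lineage depletion, were detected in all 12 libraries. Their log2 values ran from 7.48 to 9.17 and from 3.03 to 7.86. Of the other myeloid markers, Mpo, Elane, Ctsg and Prtn3 were at the lowest value in every young library. S100a8 and S100a9 were each detected in 1 young library, and Lyz2 and Csf1r each in 2. Of the values of the HSC list 60.1% were above the lowest, against 68.3% for the lymphoid, 38.0% for the myeloid, 34.7% for the megakaryocyte and 20.8% for the erythroid list. By this share the HSC list was not the highest. The part of other cells in the values of the members was not tested.

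Promoter stretches of 5 members are shown first, because nuclear respiratory genes are known to share binding motifs for a small set of transcription factors. The stretches were chosen from promoter windows that hold the NRF1 motif and lie wholly before the annotated gene, to span members found in many and in few libraries. Capitals mark the first match of the motif GCGCANGCG or its reverse complement. In the stretches of Ndufa11 and Ndufaf4 a match on the other strand begins 1 base later, and its last base is in lower case. All sequences are read 5′ to 3′ on the strand of the gene. They come from RefSeq promoter windows of the build GRCm38.p6, with Sdha at chr13:74350305-74350364 (minus strand), Ndufa11 at chr17:56717676-56717735 (plus strand), Ndufaf4 at chr4:24897944-24898003 (plus strand), Sdhd at chr9:50603895-50603954 (minus strand) and Ndufb4 at chr16:37654526-37654585 (minus strand).
Sdha: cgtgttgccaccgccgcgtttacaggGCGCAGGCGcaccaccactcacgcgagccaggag
Ndufa11: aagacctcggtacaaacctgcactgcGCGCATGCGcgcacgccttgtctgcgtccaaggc
Ndufaf4: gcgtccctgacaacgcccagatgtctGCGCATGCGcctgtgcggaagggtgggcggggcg
Sdhd: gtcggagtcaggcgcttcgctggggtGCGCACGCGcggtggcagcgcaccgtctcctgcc
Ndufb4: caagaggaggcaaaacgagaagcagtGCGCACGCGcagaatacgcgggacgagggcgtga

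The motif begins 98 bases before the RefSeq start of Sdha, 60 before that of Ndufa11, 113 before that of Ndufaf4, 79 before that of Sdhd and 191 before that of Ndufb4. These members were detected in 9, 8, 5, 3 and 1 of the 12 libraries, in the same order. Promoter windows of 250 bases before to 50 after the start were given for 72 members (77 windows). The NRF1 motif, searched on both strands like the others, was found in 28.6% of the member windows and in 8.78% of the 19984 windows of genes in the table. CCGGAAG, a core of ETS factors such as GABPA, was found in 22.1% against 11.6%, ATGGCGG, bound by YY1, in 15.6% against 5.33%, and AAGGTCA, bound by estrogen-related receptors, in 9.09% against 4.04%. The SP1 core GGGCGG (42.9% against 47.5%) and the NF-Y core CCAAT (42.9% against 37.8%) were found at more similar shares. No motif holds another, though matches of different motifs may overlap. These matches describe letters in a window and do not show binding.

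Members were detected less often than genes of the table as a whole in every library. In young HSCs, 5, 19, 16 and 8 of the 92 members stood above the lowest value (replicates 2 to 5). In aged HSCs the numbers were 37, 44, 18, 22 and 23 (replicates 0 and 2 to 5), and in aged CASIN-treated HSCs 7, 72 and 16 (replicates 1 to 3). As a share this was 5.43% to 20.7% of members in young libraries, where 27.0% to 42.9% of all genes were detected, and 19.6% to 47.8% in aged libraries, where all genes reached 50.8% to 78.1%. In CASIN replicate 2 the shares were 78.3% of members and 88.8% of all genes. The members' share was below that of all genes in 12 of 12 libraries, and the young and aged counts overlapped, young replicate 3 with 19 standing above aged replicate 3 with 18.

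**Figure D1:**
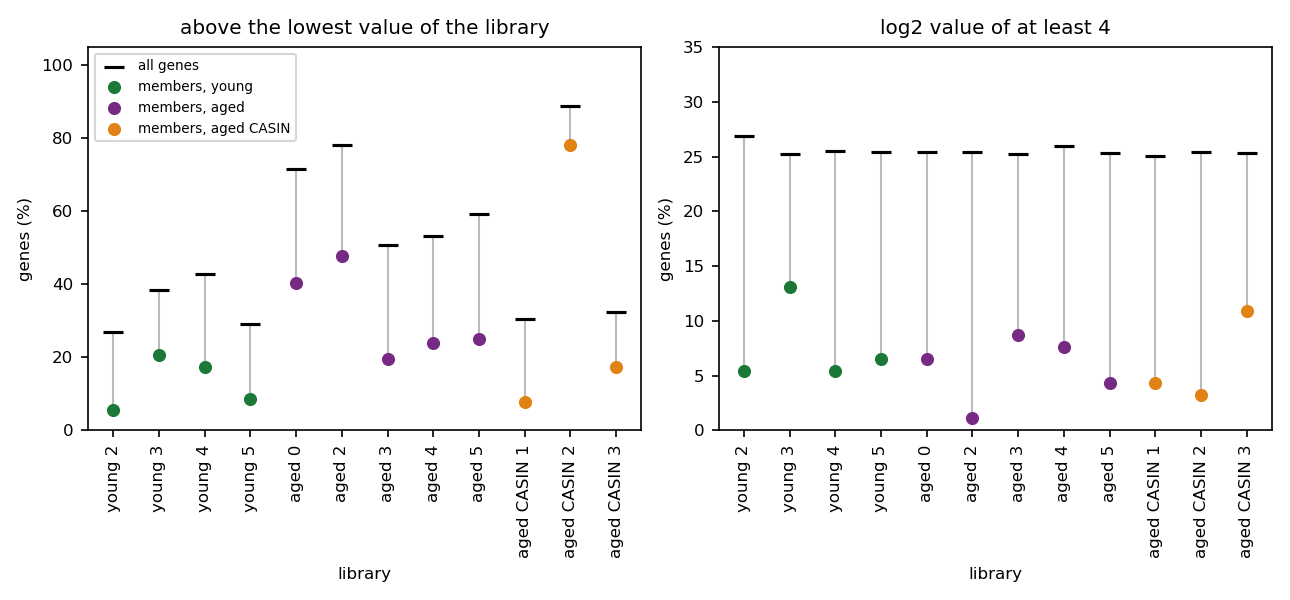
Share of the 92 members (coloured points) and of all 22548 genes (black dashes) in each library, in percent, that stood above the library's lowest value (left) or at a log2 value of at least 4 (right). Members lie below all genes in each of the 12 libraries in both panels, and CASIN replicate 2 has the highest share on the left (78.3%) and 3.26% on the right.

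Many of the detected members of aged replicates 0 and 2 and of CASIN replicate 2 had values just above the lowest. In CASIN replicate 2, 49 of its 72 detected members were less than 1 log2 unit above its lowest value. Counting only members at least 1 log2 unit above it gave 5, 19, 16 and 8 in young, 20, 16, 18, 22 and 19 in aged and 7, 23 and 16 in CASIN-treated libraries. Aged replicates 3 and 4 thus lost no member and aged replicate 5 lost 4. In the young libraries and CASIN replicates 1 and 3, every detected gene of the table was at least 1 log2 unit above the lowest value. The cut could remove no member there, so the unchanged counts in these libraries are not a stricter result. In CASIN replicate 2, 54.1% of all genes passed it, beside 23 of the 92 members. In aged libraries 50.8% to 53.5% of all genes passed, beside 17.4% to 23.9% of members. At a log2 value of at least 4, which 25.1% to 26.9% of all genes reached in each library, there were 5, 12, 5 and 6 members in young, 6, 1, 8, 7 and 4 in aged, and 4, 3 and 10 in CASIN-treated libraries. At this threshold the ranges of the 3 groups overlapped, and the members' share of 1.09% to 13.04% was below that of all genes in every library. The median log2 value of the detected members was also lower than that of all detected genes in young (5.01 against 5.51, median over libraries), aged (2.15 against 3.11) and CASIN-treated libraries (4.37 against 5.67). By library it was lower in all but young replicate 5 (5.98 against 5.91).

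No member was detected in all 12 libraries, whereas 2143 genes (9.50% of the table) were. Over the series, 13 members (14.1%) were detected in 6 or more libraries, compared with 51.4% of all genes. The 3 most widely detected members, Ndufs1, Sdha and Ndufaf7, were found in 9 libraries each. Next came Atp5f1 and Ndufa11 in 8 libraries and Atp5g2 in 7. Ndufa8, Uqcrh, Uqcrq, Cox6a2 and Cox7a1 were detected in no library. A further 12 members were detected in CASIN replicate 2 alone. By group, 37 members were detected in at least 1 young library, 69 in at least 1 aged library and 74 in at least 1 CASIN-treated library, with 27 found in all 3 groups. Without CASIN replicate 2 the last 2 counts were 21 and 11. Of all genes, 65.4% were detected in at least 1 young, 93.9% in at least 1 aged and 90.5% in at least 1 CASIN-treated library (45.3% without CASIN replicate 2). No member was above the lowest value in all 4 young libraries, although 12.6% of all genes were. In all 5 aged libraries 2 members were so (Ndufaf7 and Atp5g2), beside 27.0% of all genes. In all 3 CASIN-treated libraries 2 were (Sdha and Atp5f1), beside 17.3% of all genes.

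**Figure D2:**
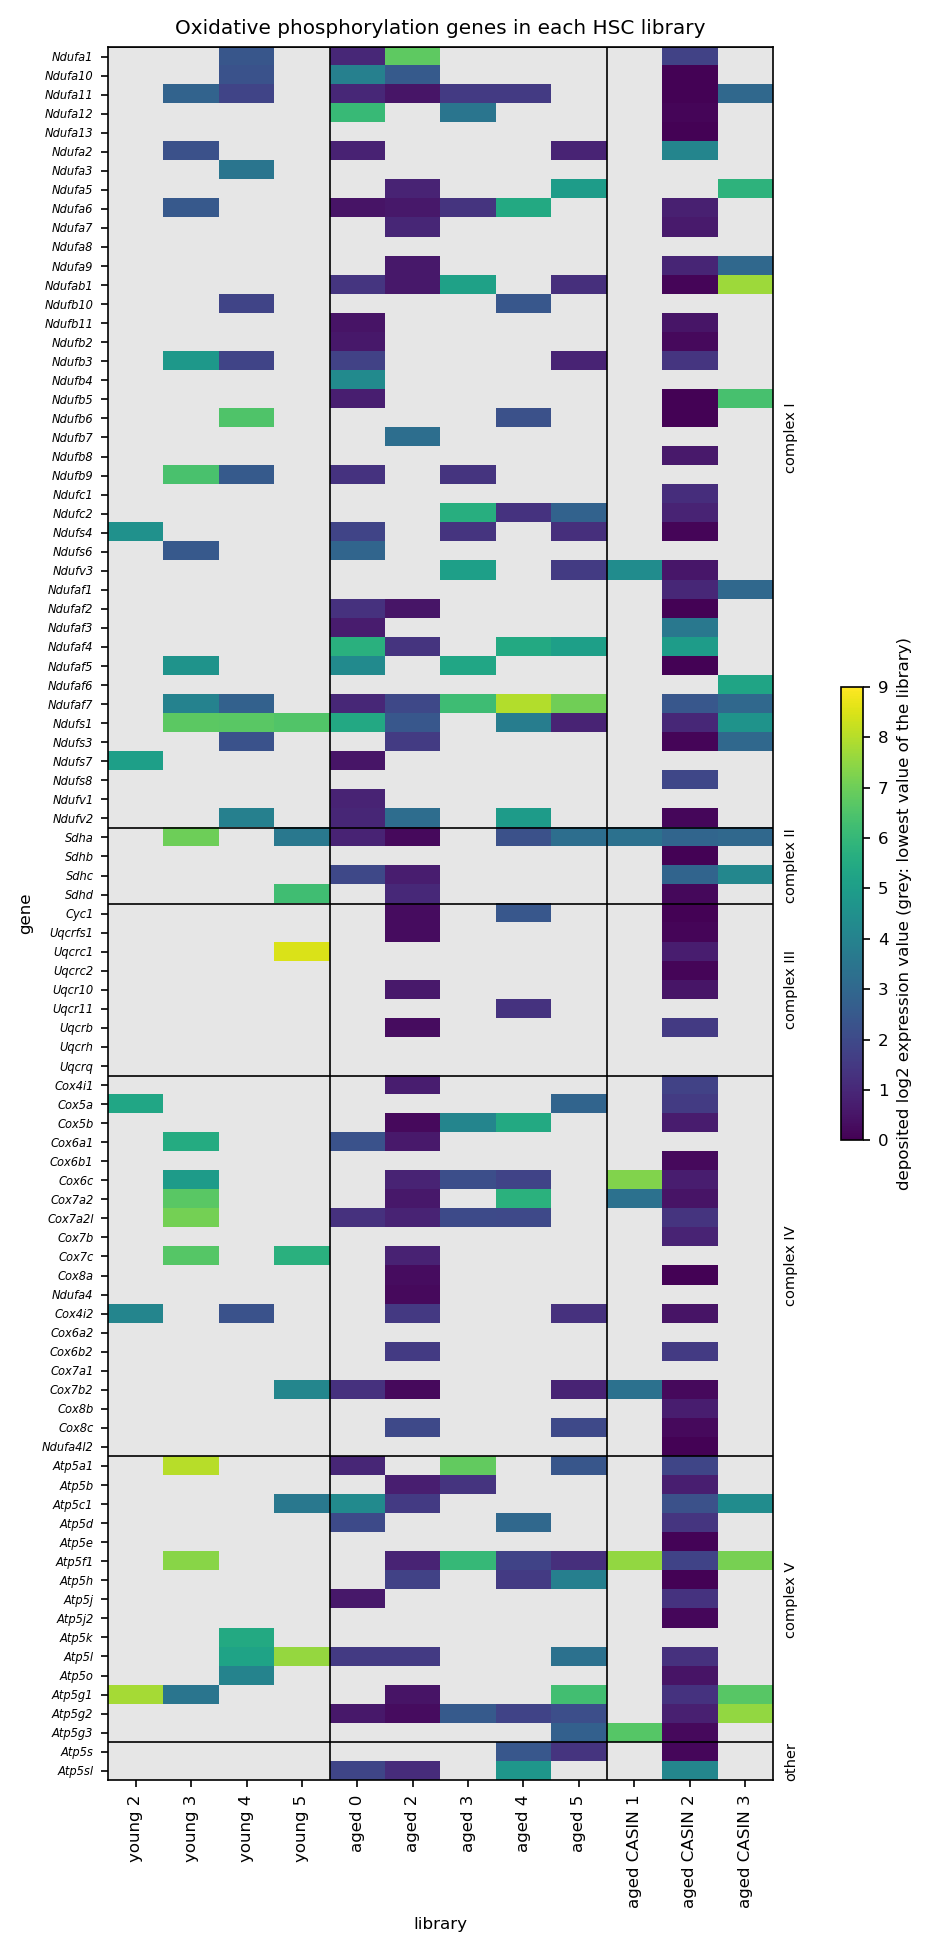
Deposited log2 expression values of 91 members (rows, ordered by respiratory complex and role) in the 12 libraries (columns, by group), with grey cells at the lowest value of a library. Most cells are grey, 26.0% of the values of all 92 members standing above the lowest, and CASIN replicate 2 shows many values close to 0.

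Detection was then compared by respiratory complex. Complex III had the lowest share of values above the lowest, at 12.04% (13 of 108), followed by complex IV with 22.9%, complex I with 27.4%, complex V with 31.7% and complex II with 35.4%. Without CASIN replicate 2 the shares were 7.07%, 18.2%, 23.2%, 26.1% and 29.5%, in the same order. The order did not hold in each library. Complex III had the lowest share in 9 libraries (ties included), complex II had the highest in 6 and the lowest in 3, where none of its members was detected, and complex V was lowest in none. No member of complex III was detected in 8 of the 12 libraries. In young HSCs a single complex III value was above the lowest, that of Uqcrc1 in replicate 5 (8.49), which was also the highest value of any member in any library. In aged HSCs 13.3% and in CASIN-treated HSCs 22.2% of complex III values were detected, those in the treated group all in replicate 2. With 4 members, a share for complex II rests on few genes, and no test was made between complexes, which differ in the length of their transcripts.

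**Figure D3:**
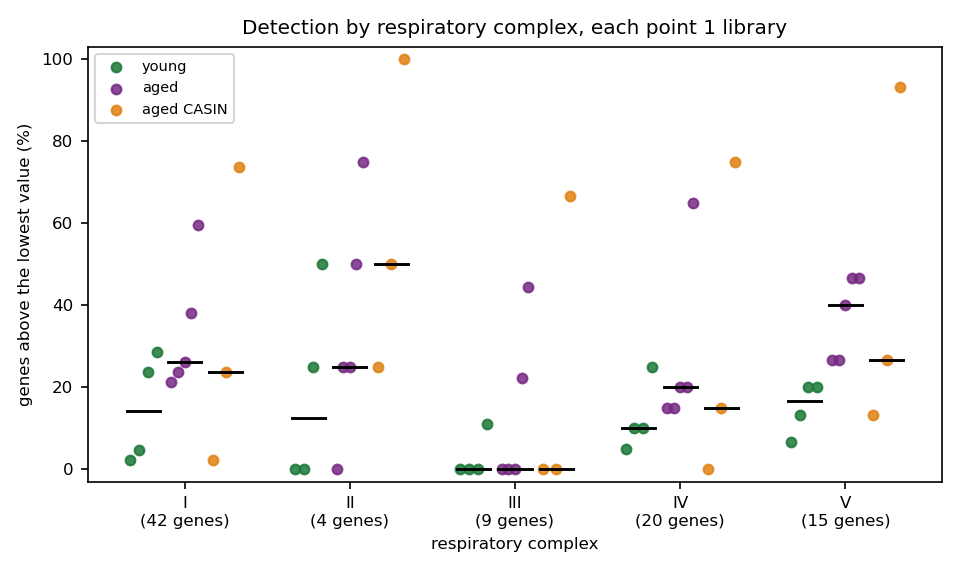
Share of the members of each respiratory complex above the lowest value, in percent, with 1 point per library coloured by group and a line at the group median. The highest point of each complex is CASIN replicate 2, and the median of complex III is 0 in all 3 groups.

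Transcript length moved with detection. The longest protein-coding transcript of the members had a median of 918 nt (91 members matched in GENCODE M21), against 2842 nt for 19295 genes of the table that matched. Lengths ran from 360 nt for Cox8b, which encodes a muscle isoform of a small complex IV subunit, to 4715 nt for Atp5g1. Of the members, 54.9% were at most 1000 nt long, compared with 8.22% of all matched genes. Among genes up to 1000 nt, 22.8% of member values (50 genes) and 22.5% of all values were above the lowest. Between 1001 and 2000 nt the shares were 23.9% (30 members) and 36.3%, and over 2000 nt they were 45.5% (11 members) and 59.7%. Among the shortest transcripts the members' share was above that of all genes in 5 of 12 libraries, with 13.5% against 10.96% in young, 28% against 28.7% in aged and 26.7% against 27.6% in CASIN-treated HSCs. In each of the longer classes it was above in 2 of 12 libraries. At a log2 value of at least 4 the members were below all genes in every class, with 4.83% against 5.97% up to 1000 nt, 5.28% against 12.7% up to 2000 nt and 15.9% against 33.2% over 2000 nt. Across genes, which are not independent replicates and share the libraries, the Spearman correlation of length with the number of libraries was 0.28 over the members and 0.57 over all matched genes. The part of transcript length in the values was not tested further.

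**Figure D4:**
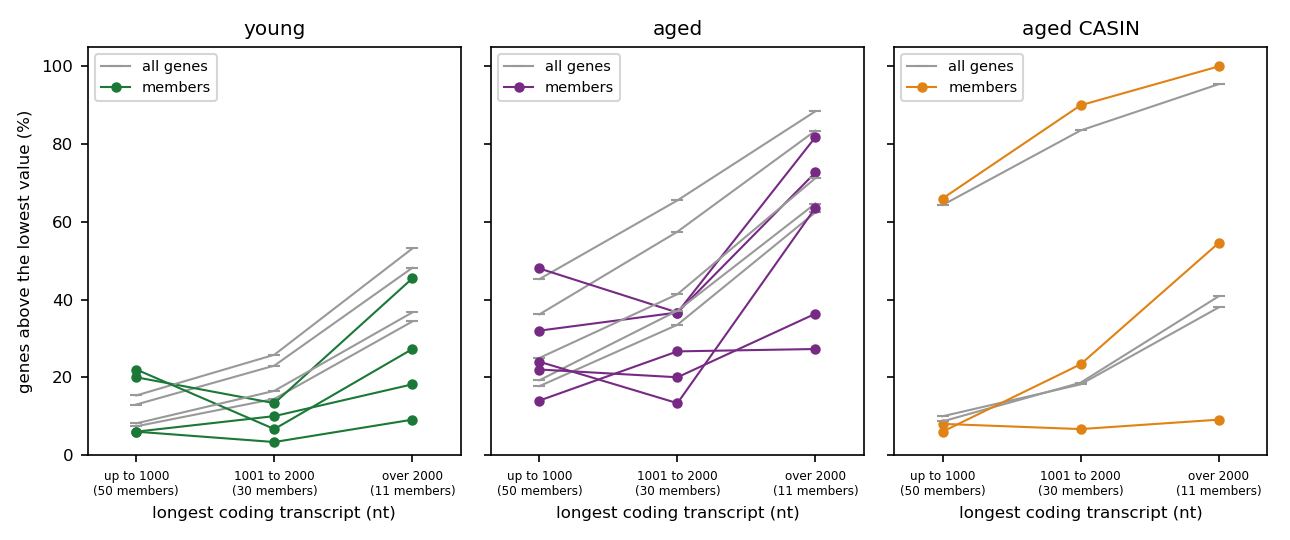
Share of genes above the lowest value, in percent, by the length of the longest coding transcript, for members (coloured points) and all genes (grey), with 1 line per library and 1 panel per group. Grey lines rise with length in every panel, and members up to 1000 nt lie close to them, with 22.8% detected over the series against 22.5%.

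Complex I oxidises NADH, and its core subunits carry the flavin, the iron-sulfur clusters and the path of electrons to ubiquinone. Ndufs1, which encodes the largest iron-sulfur subunit of the peripheral arm, lies at chr1:63143596-63176833 on the minus strand (mm10, GENCODE M21, like all gene positions given here). Its log2 values were 0.67, 6.74, 6.68 and 6.55 in young replicates 2 to 5. In aged replicates 0 and 2 to 5 they were 5.44, 2.46, 0.23, 3.82 and 0.89. In CASIN replicates 1 to 3 they were 0.63, 1.0 and 4.62. Thus 3 young libraries stood above all other libraries, while young replicate 2, aged replicate 3 and CASIN replicate 1 were at their lowest value, and the groups overlapped. The young minus aged difference was 2.59 ± 1.54 log2 units (standard error), which did not pass limma's test (adjusted p = 0.764). Leaving out young replicate 2 raised it to 4.09.

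Of the other core subunits, Ndufv2, a flavoprotein partner with an iron-sulfur cluster, was detected in 5 libraries with values from 0.17 to 4.95. Ndufv1, which binds NADH and flavin, was detected in aged replicate 0 alone (0.90). Ndufs8, which carries iron-sulfur clusters next to the membrane arm, was detected only in CASIN replicate 2 (1.91). The core subunits thus differed among themselves, with 32.1% of their values above the lowest, against 25.3% for the 28 accessory subunits and 31.0% for the 7 assembly factors.

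Among the assembly factors, Ndufaf7, a methyltransferase that modifies a core subunit during assembly, lies at chr17:78937136-78948052 on the plus strand. Its log2 values were 0.67, 3.99, 2.78 and 0.65 in young, 1.01, 1.96, 6.19, 7.98 and 7.06 in aged and 0.63, 2.46 and 3.03 in CASIN-treated libraries. It was above the lowest value in every aged library, and the 3 highest values were those of aged replicates 3 to 5, although aged replicates 0 and 2 lay within the range of the other groups. The difference was -2.82 ± 1.49 for young minus aged (adjusted p = 0.764, limma) and -2.80 ± 1.62 for aged CASIN-treated minus aged HSCs (adjusted p = 0.948, limma), 2 comparisons that share the aged libraries. Neither passed the test.

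Ndufaf4, needed for an early stage of complex I assembly, was at the lowest value in all 4 young libraries. It was detected in 4 of 5 aged libraries, with log2 values of 5.72, 1.35, 5.48 and 5.09 in replicates 0, 2, 4 and 5, and in CASIN replicate 2 (4.96). Aged replicate 3 was at its lowest value, so the groups overlapped there. Ndufaf1, which acts with the assembly complex of the membrane arm, was detected in CASIN replicates 2 (1.0) and 3 (3.03) and in no other library. Ndufa9, an accessory subunit at the joint of both arms of the complex, was detected in CASIN replicates 2 (0.93) and 3 (3.03) and in aged replicate 2 (0.58).

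Complex II oxidises succinate and is the only complex whose subunits are all nuclear-encoded. Sdha, the flavoprotein that binds succinate, lies at chr13:74322254-74350280 on the minus strand. It had log2 values of 0.67, 7.01, 0.43 and 3.59 in young libraries, 0.90, 0.22, 0.23, 2.23 and 3.24 in aged libraries and 3.34, 2.94 and 3.03 in CASIN-treated libraries. The treated libraries were close to each other, whereas the young libraries ran from the lowest value in replicates 2 and 4 to 7.01 in replicate 3, and the groups overlapped. However, 3.34 and 3.03 were the lowest detected values of any member in CASIN replicates 1 and 3. Other members, such as Cox7a2 in replicate 1 and Ndufa9 in replicate 3, shared them. The closeness of the treated libraries therefore does not show a similar expression level. Differences of 1.56 ± 1.25 for young minus aged (adjusted p = 0.786, limma) and 1.74 ± 1.36 for CASIN-treated minus aged HSCs (adjusted p = 0.948, limma) did not pass the test. Without young replicate 3 the former came to 0.20.

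Sdhc, a membrane anchor that helps to form the ubiquinone site, lies at chr1:171127165-171150603 on the minus strand. It was at the lowest value in all young libraries. Log2 values were 1.96, 0.73, 0.23, 0.22 and 0.16 in aged replicates 0 and 2 to 5, the last 3 being the lowest values of those libraries, and 0.63 (the lowest value), 2.92 and 4.15 in CASIN replicates 1 to 3. Of the treated libraries, 2 were therefore above all aged ones and the other was not. The other anchor, Sdhd, was detected in young replicate 5 (6.25), aged replicate 2 (1.05) and CASIN replicate 2 (0.21). Sdhb, the iron-sulfur subunit, was detected in CASIN replicate 2 alone (0.07).

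**Figure D5:**
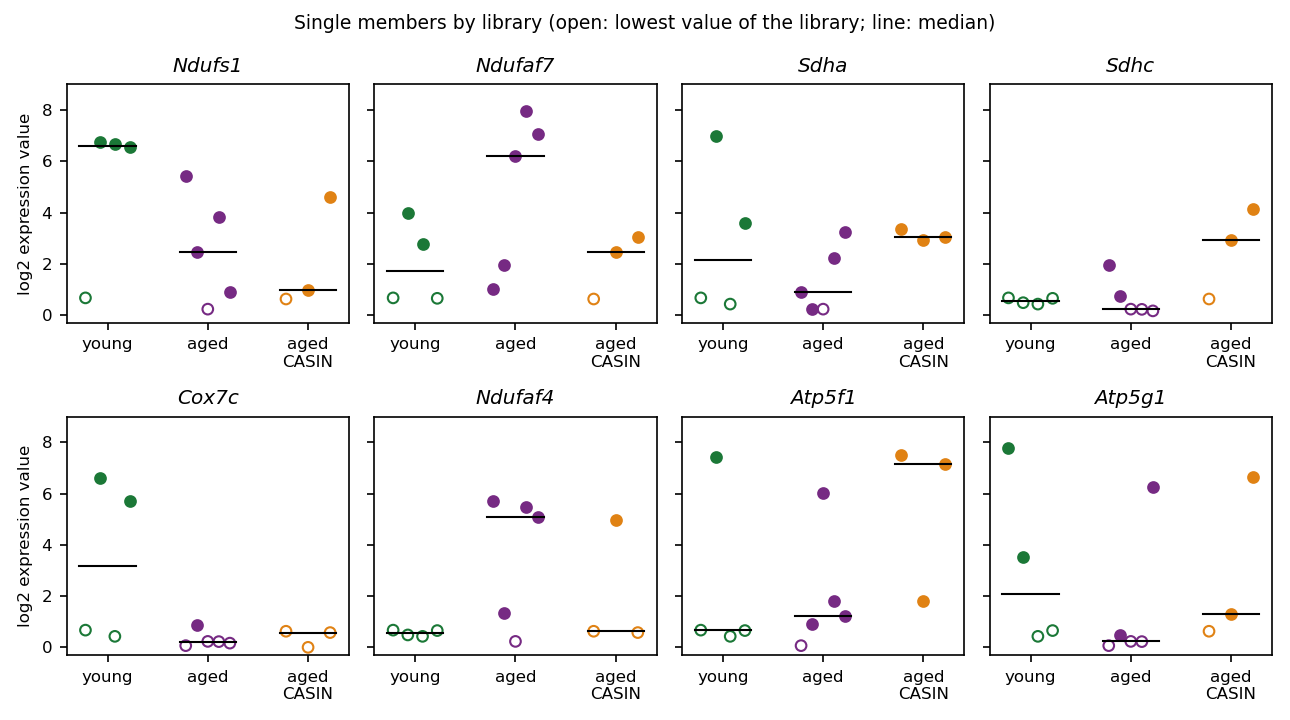
Log2 expression values of 8 members in each library by group (filled points, detected; open points, at the lowest value of the library; line, group median). Ndufs1 has 3 young libraries between 6.55 and 6.74, Ndufaf7 has 3 aged libraries between 6.19 and 7.98, and no gene separates the groups completely.

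Complex III carries electrons from ubiquinol to cytochrome c. Of its redox subunits, the cytochrome c1 gene Cyc1 was detected in aged replicates 2 (0.29) and 4 (2.46) and CASIN replicate 2 (0.07), and the Rieske iron-sulfur gene Uqcrfs1 in aged replicate 2 (0.29) and CASIN replicate 2 (0.11). Neither reached a log2 value of 3 in any library. Uqcrc1, a core protein on the matrix side, was detected in young replicate 5 as given above and in CASIN replicate 2 (0.73). Its partner Uqcrc2 was detected in CASIN replicate 2 alone (0.13). The 5 small subunits had 8.33% of values above the lowest.

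Complex IV reduces oxygen, with catalytic subunits encoded in mitochondrial DNA and surrounding subunits encoded in the nucleus. Cox7c, one of the small membrane subunits, lies at chr13:86044816-86046904 on the minus strand. Its log2 values were 0.67, 6.61, 0.43 and 5.71 in young libraries, and it was otherwise detected in aged replicate 2 alone (0.86). Young replicates 3 and 5 thus stood far above all other libraries, and young replicates 2 and 4 were at the lowest value. The young minus aged difference was 3.05 ± 1.20 and came to 1.96 without young replicate 3. Cox4i1 and Cox5b, which lie next to the catalytic core, were detected in 2 and 4 libraries and Cox5a in 3. Cox5b reached 4.11 and 5.48 in aged replicates 3 and 4, and Cox5a reached 5.33 in young replicate 2, while Cox4i1 did not exceed 1.79 (CASIN replicate 2).

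Several complex IV subunits exist in a widespread and a tissue-bound form, and the widespread form was not always the more detected. Cox4i2, an isoform known from lung and other oxygen-sensing cells, was detected in 5 libraries (young replicates 2 and 4 at 4.11 and 2.26, aged replicates 2 and 5 at 1.5 and 1.29, CASIN replicate 2 at 0.46), against 2 for Cox4i1. Cox7b2, a testis isoform, was detected in 6 libraries with values from 0.22 to 4.15, against 1 for Cox7b (0.91 in CASIN replicate 2). For Cox6a the widespread Cox6a1 was detected in 3 libraries, up to 5.54 in young replicate 3, and the heart and muscle form Cox6a2 in none. Cox7a2 was detected in 5 libraries, up to 6.70 in young replicate 3, Cox7a2l, which helps to join complexes III and IV, in 6, up to 7.12 in the same library, and the muscle form Cox7a1 in none. Cox6b1 was detected in 1 library and its testis form Cox6b2 in 2. For Cox8 the widespread Cox8a was detected in 2 libraries (at most 0.29), Cox8b in 1 (0.74) and Cox8c in 3 (at most 2.00). Ndufa4 was detected in 1 library (0.22) and its relative Ndufa4l2, known as a hypoxia-induced gene, in 1 (0.04). Levels of different genes are not compared here, since the values are not known to be per length, and paralogs and processed copies of such small genes can share reads.

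Complex V has a catalytic F1 head, and a membrane Fo part whose c ring turns with the proton flow. Atp5f1, which encodes the b subunit of the stalk between them, lies at chr3:105942698-105960099 on the minus strand. Log2 values were 0.67, 7.41, 0.43 and 0.65 in young libraries, 0.07, 0.90, 6.02, 1.80 and 1.21 in aged libraries and 7.53, 1.80 and 7.16 in CASIN-treated libraries. Young replicate 3, aged replicate 3 and CASIN replicates 1 and 3 were high, so every group held a high library. The CASIN-treated minus aged difference was 3.5 ± 1.98, which did not pass the test (adjusted p = 0.948, limma).

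The c ring is encoded by 3 genes with the same mature protein. Atp5g1 (chr11:96068852-96075670, minus strand) was detected in young replicates 2 and 3 (7.78 and 3.51), aged replicates 2 and 5 (0.46 and 6.27) and CASIN replicates 2 and 3 (1.31 and 6.65). Atp5g2 was at the lowest value in every young library and above it in all 5 aged libraries (0.58, 0.32, 2.54, 1.80 and 2.15 in replicates 0 and 2 to 5) and in CASIN replicates 2 and 3 (0.81 and 7.53). The aged values of 0.58 and 0.32 lay within or below the range of the lowest values of the young libraries (0.43 to 0.67), so the groups overlapped in level. Atp5g3 was detected in aged replicate 5 (2.76) and CASIN replicates 1 and 2 (6.62 and 0.22). No library had a log2 value of at least 4 for all 3 genes, and CASIN replicate 3 had one for 2 of them. Of the F1 head, Atp5a1 was high in young replicate 3 (8.03) and aged replicate 3 (6.83) and detected in 5 libraries, and Atp5b, the catalytic subunit, was detected in 3 with a highest value of 1.36 in aged replicate 3.

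The comparison of young with aged HSCs was made with limma over all 22548 genes. At an unadjusted p under 0.05, 2 members were called, Cox7c, with higher values in young HSCs, and Ndufaf4, with lower ones (adjusted p = 0.764 for both, limma). The directions depended on the setting, with 6 members higher and 0 lower in young HSCs after centring on genes detected in all libraries, 10 higher and 1 lower with a pseudocount of 0.1, and 25 higher and 0 lower with limma-trend and robust eBayes. In these settings 6.52%, 11.96% and 27.2% of members were called, beside 6.42%, 7.62% and 9.76% of all genes. As deposited, members detected in no young or aged library all carry the same difference of 0.42, set by the lowest values. The 2 members called are 2.17% of all members, beside 5.33% of all genes tested. At a Benjamini-Hochberg adjusted p under 0.05 limma called 0 members, beside 0.0177% of all genes, the lowest adjusted p of a member being 0.764. The median log2 difference of the members was 0.37, beside -0.02 over all genes. With 1 common lowest value for all libraries the members' median was 0 (all genes -0.17), and with centring on genes detected in all libraries it was 0.82 (all genes 0.44). The number called at the unadjusted threshold was 4 without young replicate 3 and 1 without young replicate 4 or 5 or aged replicate 4 or 5. That is 4.35% of members beside 5.21% of all genes, and 1.09% beside 5.11% to 5.67%.

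In aged CASIN-treated against aged HSCs, 4 members passed the unadjusted threshold, all higher in treated cells. These were Sdhc with a difference of 1.90 ± 0.73 log2 units and Ndufa9 with 1.28 ± 0.52, together with Ndufaf1 and Ndufs8, for which no difference is given because no aged library was above its lowest value. Without CASIN replicate 3 the differences were 1.11 for Sdhc and 0.53 for Ndufa9, and without CASIN replicate 1 that of Sdhc was 2.87. They make up 4.35% of the members, beside 4.4% of all genes. For Ndufa9, Ndufaf1 and Ndufs8 the groups did not overlap as deposited, but CASIN replicate 1, and for Ndufs8 also replicate 3, was at its lowest value, and with 1 common lowest value the groups overlapped. The same held for members that were not called, such as Cox7b, Cox8b and Ndufc1. A lack of overlap as deposited is thus not particular to the called members, and its share over all genes is not given here. With that setting 1 member passed the threshold (1.09%, beside 3.97% of all genes). At an adjusted p under 0.05 limma called 0 members, beside 0.0222% of all genes, with a lowest adjusted p of 0.948. The median difference of the members was 0.26 (all genes -0.04), 0 with a common lowest value (all genes -0.17) and 0.61 with centring (all genes 0.31). The count was 2 without aged replicate 5 or CASIN replicate 3, and 7 without CASIN replicate 1. That is 2.17% of members beside 4.21% and 4.43% of all genes, and 7.61% beside 4.59%.

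Between young and aged CASIN-treated HSCs, 1 member passed the unadjusted threshold, namely Sdhc, detected in no young library and in CASIN replicates 2 and 3. That is 1.09% of the members, beside 4.29% of all genes. At the adjusted threshold limma called 0 members, beside 0% of all genes (968 at the unadjusted threshold), and the lowest adjusted p of a member was close to 1 (0.9995). The median difference of the members was 0.12, beside 0.09 over all genes. The count at the unadjusted threshold was 5 without young replicate 2 (5.43%, beside 4.64% of all genes) and 3 without young replicate 3 (3.26%, beside 4.53%). It was 2 without young replicate 4 or 5 (2.17%, beside 4.71% and 4.61%). Without CASIN replicate 1 or 2 it was 4 (4.35%, beside 4.83% and 5.82%). The 3 comparisons share libraries and are not independent of each other.

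By complex, the medians of the young minus aged differences were 0.32 for complexes I and V, 0.37 for complex III, 0.42 for complex IV and 0.99 for complex II. For CASIN-treated minus aged HSCs they were 0.20, 0.32, 0.26, 0.24 and 1.01 in the same order of complexes I, V, III, IV and II. Because young libraries have a higher lowest value than aged libraries, a gene detected in none of them, such as Ndufa8, already shows a difference of 0.42 for young minus aged HSCs. The young minus aged medians of complexes I, III, IV and V were no larger than that. For CASIN-treated minus aged HSCs such a gene shows 0.26.

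Other genes of the pathway, from lists that leave out the members, were looked at in the same way. Cytochrome c itself, Cycs, which shuttles electrons from complex III to complex IV, was detected in all 12 libraries, unlike the complex III gene Cyc1. Cycs had log2 values of 4.55, 5.36, 5.64 and 5.33 in young, 7.44, 8.10, 8.25, 7.49 and 6.78 in aged and 8.74, 7.42 and 5.67 in CASIN-treated libraries. Each young library was below each aged and each treated library, a difference of -2.39 ± 0.60 for young minus aged (adjusted p = 0.534, limma) and -2.06 ± 0.68 for young minus CASIN-treated HSCs (adjusted p = 0.962, limma). Processed copies of Cycs are known in the mouse genome and can share its reads. Of 16 electron carrier and ATP synthase partners, young HSCs were above aged ones for 1 and below them for 1, 1 was higher and none lower in CASIN-treated than in aged HSCs, and none was higher and 2 lower in young than in CASIN-treated HSCs, all at an unadjusted p under 0.05. The shares of all genes that passed were 5.33%, 4.4% and 4.29%, in the same order.

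Among 38 assembly factors outside the rule, young HSCs had higher values than aged ones for 3 and lower values for 1 at an unadjusted p under 0.05, which 5.33% of all genes passed. The one that was lower was Coa5, a complex IV assembly factor found in all 12 libraries, with log2 values from 6.77 to 7.79 in young and from 8.05 to 8.91 in aged libraries without overlap (-1.11 ± 0.41, adjusted p = 0.764, limma). In CASIN-treated against aged HSCs 1 of these factors was higher and none lower (beside 4.4% of all genes), and in young against CASIN-treated HSCs 2 were higher and none lower (beside 4.29%). Lyrm7, which stabilises the Rieske protein of complex III, had values of 5.01, 7.08, 1.84 and 7.20 in young libraries and 0.63, 0.52 and 0.58 in CASIN-treated libraries, of which only that of replicate 2 was above the lowest value (4.71 ± 1.39, adjusted p = 0.866, limma). The assembly factors had 48.0% of values above the lowest and a median transcript length of 2133 nt, compared with 26.0% and 918 nt for the members.

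Of 16 regulators of respiratory chain genes, young HSCs were above aged ones for none and below them for 1, and 1 was higher and 1 lower in CASIN-treated than in aged HSCs. In young against CASIN-treated HSCs 2 were higher and 1 lower. The shares of all genes at this threshold were 5.33%, 4.4% and 4.29% in these comparisons. Nrf1, the factor whose motif is shown above, had log2 values of 4.55, 3.02, 2.21 and 4.50 in young, 3.29, 5.92, 3.49, 6.44 and 1.52 in aged and 6.29, 7.49 and 6.81 in CASIN-treated libraries. The treated libraries stood above all young ones (-3.29 ± 1.12 for young minus CASIN-treated HSCs, adjusted p = 0.977, limma), and aged libraries overlapped both. Ppargc1b, a coactivator of mitochondrial genes, ran from 4.55 to 7.36 in young and from 0.89 to 3.92 in CASIN-treated libraries (3.38 ± 1.20, adjusted p = 0.9995, limma).

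Of 16 genes of the tricarboxylic acid cycle and pyruvate dehydrogenase, 3 were higher in CASIN-treated than in aged HSCs (beside 4.4% of all genes), 2 were lower in young than in CASIN-treated HSCs (beside 4.29%) and none separated young from aged HSCs (beside 5.33%) at an unadjusted p under 0.05. Suclg2, a subunit of succinyl-CoA ligase, the enzyme that makes the substrate of complex II, was detected in all 12 libraries. Log2 values ran from 6.87 to 7.62 in young, from 7.20 to 8.43 in aged and from 8.49 to 10.14 in CASIN-treated libraries (1.43 ± 0.48 for CASIN-treated minus aged, adjusted p = 0.948, limma). Pdhb, a subunit of pyruvate dehydrogenase, was 6.74, 2.58 and 7.33 in CASIN-treated libraries and at most 2.48 in aged libraries (4.70 ± 1.73, adjusted p = 0.948, limma). Its highest value was that of young replicate 4 (8.005), and the other young libraries were at their lowest value. Dlst, a subunit of oxoglutarate dehydrogenase, was detected in every CASIN-treated library (5.48, 3.93 and 4.15), in aged replicates 2 (4.99) and 5 (2.83) and in young replicate 4 (3.11), so that the groups overlapped. None of 9 genes of mitochondrial redox defence passed the unadjusted threshold in any comparison. No gene of these lists passed the adjusted threshold in any of the 3 comparisons.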

How the data were processed

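The authors trimmed the paired-end reads, aligned them to mm10 with TopHat (named in the submitters' processing notes as well), processed them with Cufflinks and deposited log2 values for 22548 genes in 12 samples, with a common distribution across samples. The step from the Cufflinks output to the log2 values is not given in the sources used here. Groups and replicate numbers came from the labels, and no batch is given.

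The values were used as deposited, without a filter. Members and lists were chosen with earlier results of these data known. Detection means a value above the lowest of the library. Differences were tested with limma 3.58.1 (R 4.3.3, lmFit and eBayes, two-sided, Benjamini-Hochberg over all genes) in 1 fit of 3 groups, after a check on simulated data. Nothing says that same-numbered samples share an animal, so p-values measure the spread between these samples. The labels and the study's methods give different cell numbers per library.

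Named members were those with an adjusted p under 0.05, those with an unadjusted p under 0.05 and no overlap of groups (up to 6 per direction), fixed subunits, isoform pairs, the 5 with the highest mean and those detected nowhere, and from each pathway list up to 3 genes per comparison with an unadjusted p under 0.05 and no overlap. Other members are named where a count or range called for it, after their values were seen. The values of 1 member, which is included in all counts, are not reported here. Gene positions and transcript lengths are from GENCODE M21 (91 members matched), and promoter windows from RefSeq. Alternatives were other scalings, filters and fits, a replicate block, stricter detection and each sample left out. Figures used matplotlib 3.10.9.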

Additional observations from a re-analysis of the deposited data

Results flagged for a closer look

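Within the groups of 4 young and 5 aged libraries, a highest or lowest value was looked for whose gap to the nearest other value took up more of the group's range than Dixon's limit allows (0.829 for 4 samples and 0.71 for 5). Chance alone gives about 5% of groups such a value. Of 49 sets of values, 21 held one. The criterion is met whenever a gene is detected at a clear level in a single library of its group, and most of these results are of that kind.

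Young replicate 3 stood apart most often. It had 12 members at a log2 value of at least 4, where the other young libraries had 5 or 6, and it was the only high young library for Atp5a1 (8.03), Atp5f1 (7.41), Cox7a2l (7.12), Cox7a2 (6.70) and Cox6a1 (5.54). Young replicate 5 was the only high young library for Uqcrc1 (8.49), Sdhd (6.25) and Cox7b2 (4.15). Young replicate 2 was alone in detecting Cox5a (5.33) and alone at the lowest value for Ndufs1 (0.67).

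Among the aged libraries, replicate 5 stood apart for Atp5g1 (6.27), Cox5a (2.92) and Atp5g3 (2.76), replicate 4 for Cox7a2 (5.74) and Cyc1 (2.46), replicate 2 for Cox6b2 (1.52), Sdhd (1.05) and Cox4i1 (0.73), and replicate 0 for Cox6a1 (2.26) and Ndufv1 (0.90).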

How the results depend on the processing

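No member passed an adjusted p under 0.05 in the fit as reported or in any of the 22 alternative settings run for each comparison. The lowest adjusted p (limma) was 0.274 for young against aged, 0.279 for aged CASIN-treated against aged and 0.23 for young against aged CASIN-treated HSCs. The count of members at an unadjusted p under 0.05 (2, 4 and 1 for these comparisons, in this order) and their median log2 difference (0.37, 0.26 and 0.12) did depend on the setting. With 1 common lowest value the count was 1 in CASIN-treated against aged HSCs and the first 2 medians were 0. Centring on genes detected in all samples gave 6 and 10 members and medians of 0.82 and 0.61 in the first 2 comparisons. With genes detected in at least 6 samples, or with a mean of at least 3, the counts were 0 in each comparison, with medians of 0.66 and 0.81 in the first 2 comparisons for the former and -0.11, -1.64 and 1.53 for the latter, which tests few members. A pseudocount of 0.1 gave 11, 10 and 2 members and medians of 1.22, 0.80 and 0.45. Limma-trend with robust eBayes gave 25, 13 and 7 members. The larger counts came with shares of all genes of 6.42% and 5.27% for centring, 7.62% and 5.75% for the pseudocount and 9.76% and 5.38% for limma-trend in the first 2 comparisons. In the third comparison limma-trend called 7.61% of members, beside 4.21% of all genes. The cause of the larger counts was not tested. Fits of the compared groups only gave 1 member in each of the first 2 comparisons (1.09%, beside 5.18% and 3.92% of all genes). The number of detected genes as a covariate gave 4, 10 and 3 members, with a median of 0.15 for young against aged HSCs. With this covariate 4.35%, 10.9% and 3.26% of members were called, beside 4.99%, 5.04% and 4.59% of all genes. Correlations of same-numbered samples' deviations over all genes lay between -0.033 and 0.058. With many values tied at a library's lowest value, they cannot tell whether same-numbered samples share an origin. With the replicate block the counts were 1, 2 and 2 (1.09%, 2.17% and 2.17%, beside 5.20%, 3.99% and 4.77% of all genes). In that fit the CASIN-treated minus aged difference of Ndufs1, -0.49 as reported, was 1.94. Leaving out the samples 1 at a time, the counts ran from 1 to 4, from 2 to 7 and from 1 to 5. The shares of all genes called in these fits ran from 5.04% to 5.67%, from 4.08% to 7.18% and from 4.06% to 5.82%. The median for young against CASIN-treated HSCs ran from -0.042 (without CASIN replicate 2) to 0.22. The difference of Ndufs1 between CASIN-treated and aged HSCs ran from -1.76 to 0.24. It was above 0 without aged replicate 0 (0.23), CASIN replicate 1 (0.24) or CASIN replicate 2 (0.06). The differences of Cox7c, Ndufaf7, Sdha, Sdhc and Ndufa9 reported above kept their sign in all settings in which they were fitted. Those of Atp5f1 and of the genes outside the rule were not followed through these settings. A threshold of 4, chosen after seeing the data, lowered the median number of members per aged library from 23 to 6, and the counts by group and complex without CASIN replicate 2, given above, were also added then. Unknown depth limits every statement on undetected members.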
